A study of Mus musculus with 31 samples.

Results

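The 10 genes described here are Hif1a, Vegfa, Slc2a1, Hk2, Pfkp, Aldoa, Pgk1, Eno1, Ldha and Egln3. They were listed by name for their roles in the response to low oxygen and in glycolysis, and they are 10 of 21911 protein-coding genes in the annotation. The study profiled chromatin accessibility by ATAC-seq in NIH-3T3 cells, which are fibroblasts derived from mouse embryos, with different transcription factors (TFs) overexpressed or none. The values below come from 1 library of the parental line, which carries no TF transgene, and the other 30 of the 31 samples were not analysed here. The labels of the parental library name no low-oxygen treatment and no doxycycline, whereas the methods describe doxycycline for NIH-3T3 cells in ATAC-seq in general. Peaks are regions where sequenced fragments pile up over DNA that the transposase Tn5 could reach.

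Cells sense low oxygen through hypoxia-inducible factor (HIF), a dimer of an oxygen-labile alpha subunit such as HIF-1α and the stable partner ARNT. Prolyl hydroxylases, including the Egln3 product PHD3, mark the alpha subunit for destruction when oxygen is present. In low oxygen the dimer binds hypoxia response elements (HREs), whose core reads ACGTG or GCGTG and raises the transcription of genes for angiogenesis, glucose uptake and glycolysis. The glycolytic enzymes among them are used in oxygenated cells as well.

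The deposited list held 63456 peaks with a median fold enrichment of 6.04 (quartiles 4.20 and 9.15), where fold enrichment is the fragment pileup at the summit divided by the pileup expected from the surroundings, with 1 added to each. The number of fragments at each summit was solved from the deposited values, with a median of 29.0 and a lowest value of 10. Intervals for it are 95% exact Poisson intervals, which cover counting error only. A peak within 1 kb of a transcription start site (TSS) was found for 8 of 8 fibroblast markers, 0 of 4 epithelial, 1 of 4 blood and 3 of 4 endothelial markers. The share was 53.7% over all protein-coding genes. The endothelial marker Cdh5 (fold enrichment 12.8) was above all the fibroblast markers (3.41 for Thy1 to 10.5 for Fn1), so these markers do not separate fibroblast from endothelial. With 1 library there is no replicate error, so values are described and no difference was tested.

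All 10 genes had a peak within 1 kb of a TSS, a property of 53.7% of protein-coding genes in this library. In all, 80 peaks were assigned to the 10 genes, of which 18 lay at a TSS, 21 elsewhere in the gene bodies and 41 in the 25 kb on either side. At least 2 TSS peaks were found for 8 genes (13.0% of protein-coding genes, and 24.2% of those with any TSS peak). A TSS peak lies within 1 kb of a TSS and need not cover it, as the second one of Pgk1 does not. The 10 genes have 71 annotated TSS positions between them, of which 36 lay inside a peak. Neither this share nor the number of TSS positions per gene was compared with all protein-coding genes. Peaks in the gene body, away from the TSSs, were found for 8 genes, all but Hif1a and Ldha (34.3% of protein-coding genes), and flanking peaks for 9 genes, all but Egln3 (71.4%). Per 10 kb of gene body the 10 genes held 0.722 body peaks, beside 0.220 for all protein-coding genes and 0.287 for those with a TSS peak. These rates are summed peaks over summed gene lengths, so long genes weigh most. Hk2, Pfkp and Egln3 held 7, 5 and 3 of the 21 body peaks.

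**Figure D1:**
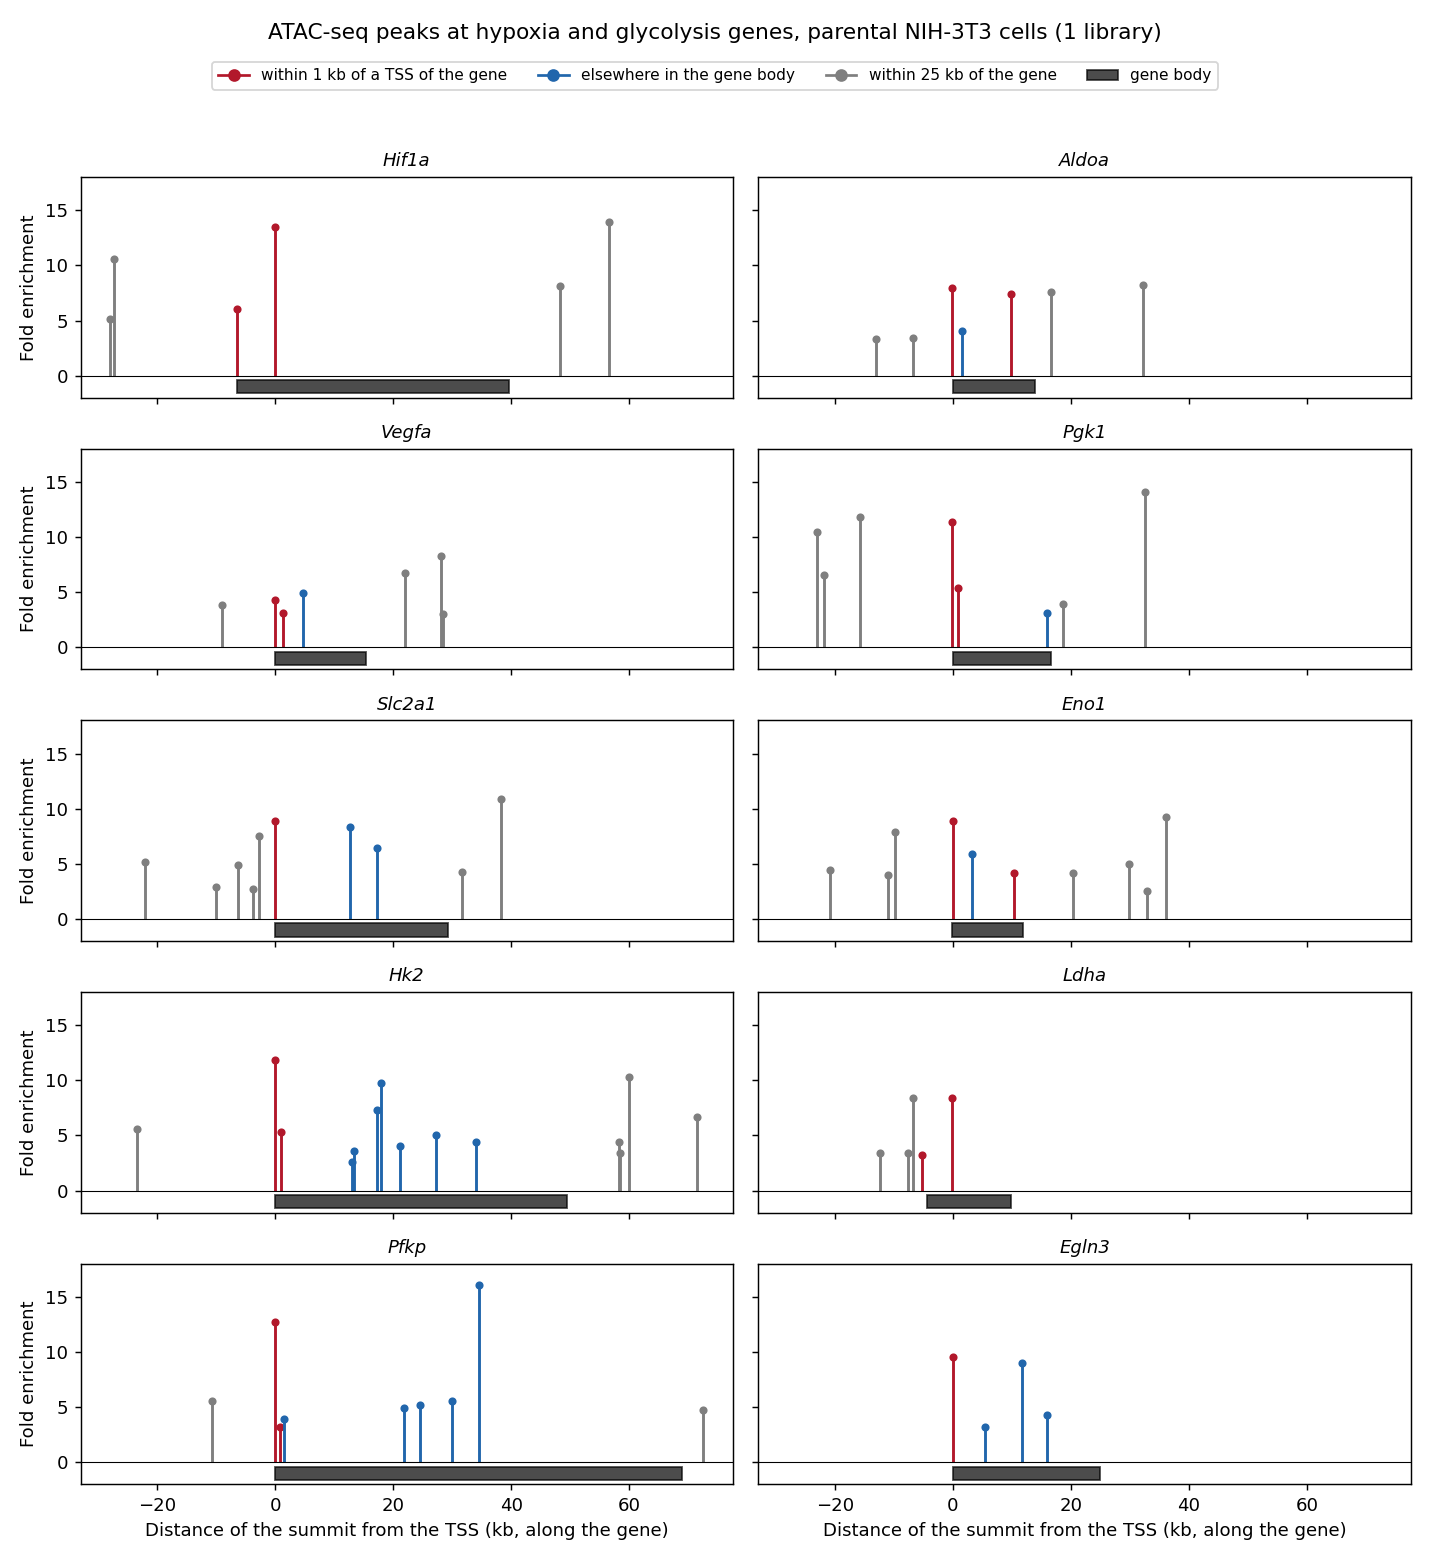
Position (distance of the summit from the TSS nearest to the highest TSS peak, in kb along the direction of transcription) and fold enrichment of the 80 peaks of the 10 genes in 1 library, with TSS peaks in red, gene body peaks in blue, flanking peaks in grey and the gene body as a black bar. The highest stem, at 16.1, is a body peak of Pfkp, and the TSS peaks of Vegfa are the lowest among the highest TSS peaks of the genes.

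The highest TSS peaks of the 10 genes lay on both sides of the median of all genes in height. The highest TSS peak had a median fold enrichment of 9.18 over the 10 genes and of 9.86 over the 11773 protein-coding genes with a TSS peak (quartiles 7.27 and 12.4), and 4 genes were above that median. Measured as fragments at the summit, the medians were 69.0 and 64.0, with 5 genes above. The peaks had a median width of 909 bp over the 10 genes and of 796 bp over all genes with one. Fold enrichment ordered the genes as Hif1a, Pfkp, Hk2, Pgk1, Egln3, Slc2a1 and Eno1 at the same value to 3 digits, Ldha, Aldoa and Vegfa. Neighbours in this order had overlapping intervals except at its end, where the interval of Vegfa (3.09 to 5.80) lay below that of Aldoa (5.94 to 10.6). The interval of Hif1a (10.7 to 16.9) lay above those of Aldoa and Vegfa and overlapped the others. Ordered by fragments instead, Pgk1, Hk2 and Slc2a1 came first.

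**Figure D2:**
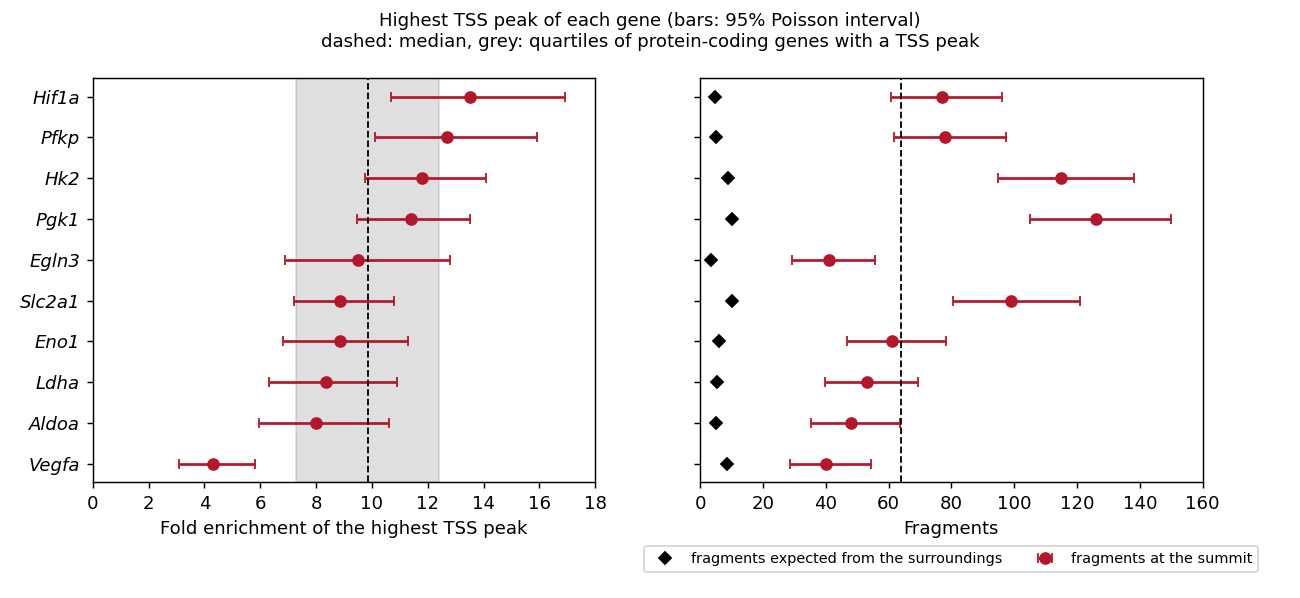
Fold enrichment (left) and fragments at the summit (right, red) of the highest TSS peak of each gene in 1 library, with 95% Poisson intervals, and the fragments expected from the surroundings (right, black diamonds). Dashed lines are the medians of 9.86 and 64.0 over protein-coding genes with a TSS peak, and the grey band spans their quartiles of fold enrichment. Vegfa, at 4.29, is the only one of the 10 genes whose point lies below the band, while Hif1a at 13.5 and Pfkp at 12.7 lie above it.

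HRE cores near these start sites were read from the GRCm38 (mm10) reference genome, not from the cells. The A form of the core, ACGTG, was searched on both strands within 1 kb of the annotated TSS nearest to the highest TSS peak. It occurs also inside the E-box CACGTG, which is read on both strands and was counted as 1 place. Shown are 12 sites of 29 bases, 5′ to 3′ on the strand that reads ACGTG, because they are the known kind of HIF binding site at these genes and differ in whether a peak covers them. The core is in capitals, and the number after the gene is the position of its middle base from the TSS along the gene. For Aldoa this TSS is the upstream one, at -9967 bp from that of the main coding transcripts, which was not searched.
Hif1a -105 (chr12:73907785-73907813, plus strand): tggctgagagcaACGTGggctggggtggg
Vegfa -929 (chr17:46033284-46033312, minus strand): tacacagtgcatACGTGggtttccacagg
Slc2a1 0 (chr4:119108697-119108725, plus strand): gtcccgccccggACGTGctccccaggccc
Hk2 -50 (chr6:82774490-82774518, plus strand): ccccggacagtgACGTGgatgtgctcatt
Hk2 839 (chr6:82773601-82773629, plus strand): ggggctcctcccACGTGggcgcagcagtc
Pfkp -308 (chr13:6649071-6649099, minus strand): gcctctgcgcccACGTGgtgggctgacag
Aldoa 239 (chr7:126808855-126808883, minus strand): ccagccccatggACGTGagtccagtgctc
Pgk1 -148 (chrX:106186938-106186966, plus strand): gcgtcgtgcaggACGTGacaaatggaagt
Pgk1 -129 (chrX:106186957-106186985, minus strand): gagactagtgagACGTGctacttccattt
Eno1 -103 (chr4:150236835-150236863, plus strand): gtcgtgggccggACGTGtggcgccgcagc
Ldha -80 (chr7:46845745-46845773, plus strand): ggcccagcctacACGTGggttcccgcacg
Egln3 -241 (chr12:54204087-54204115, minus strand): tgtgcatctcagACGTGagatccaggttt

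Of these sites, those of Vegfa and of Pfkp at -308 lay outside the peaks of the list, and the others lay inside. In all, ACGTG was present at 36 places within 1 kb of the 10 start sites, and 27 of them (75.0%) lay in a peak. Over all protein-coding genes with a TSS peak, 51.9% of 19602 such places lay in a peak. The median number of places per gene was 3.00 for the 10 genes and 1.00 for all genes, and at least 1 place in a peak was found for 9 of the 10 genes and for 52.4% of all. Hk2 had 7 places, all in peaks, Ldha 4 of 4 in peaks, Eno1 3 of 3, Slc2a1 2 of 2, Pgk1 5 of 6 and Hif1a 3 of 4. Pfkp, Aldoa (at its upstream TSS) and Egln3 each had 1 of 3 places in a peak, and Vegfa 0 of 1.

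**Figure D3:**
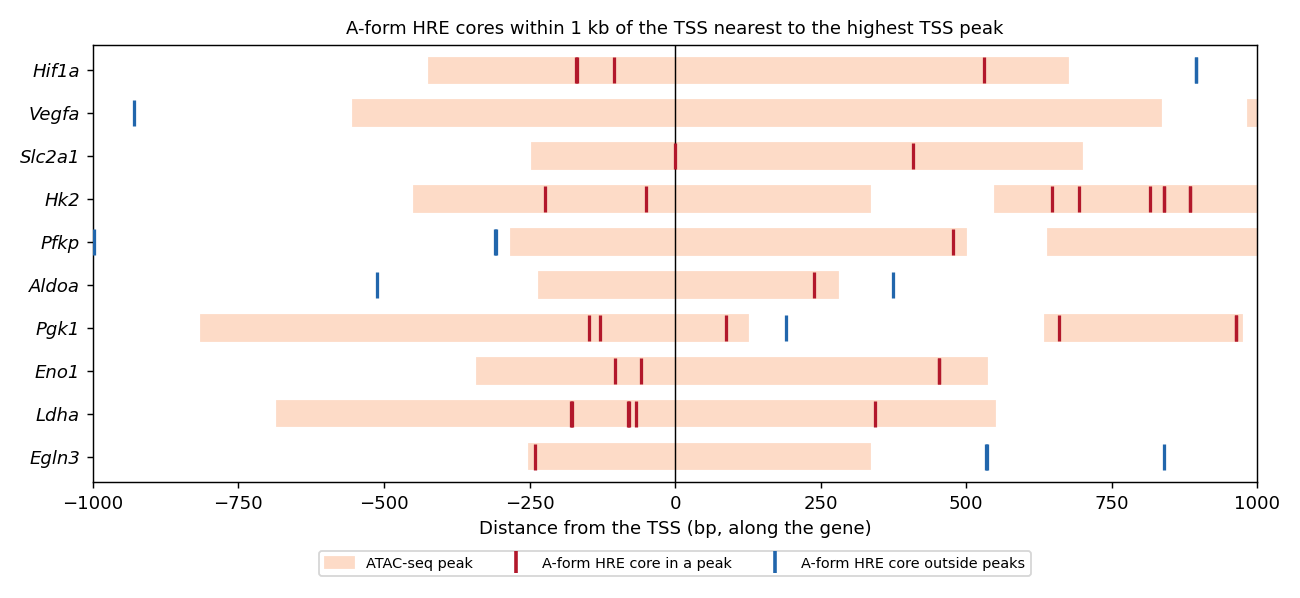
Places of ACGTG on either strand (ticks, red inside a peak and blue outside) and extent of the ATAC-seq peaks (shaded) within 1 kb of the TSS nearest to the highest TSS peak, for 1 library; the x axis is the distance from the TSS in bp along the gene. In total 27 of 36 places lie in a peak, with a pair of Hk2 peaks holding all 7 of its places and the place of Vegfa lying upstream of its peak. For Aldoa the TSS shown is the upstream one.

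The gene for the oxygen-labile subunit, Hif1a, had the highest TSS peak of the 10 genes by fold enrichment. This peak (chr12:73907482-73908578) spanned 1097 bp, with a fold enrichment of 13.5 (percentile 83.6 of protein-coding genes with a TSS peak), 77 fragments (60.8 to 96.2) against 4.77 expected and a −log10 q of 60.6. It covered the start site of 2 coding transcripts. A smaller peak of 231 bp, with a fold enrichment of 6.04 and 22 fragments (13.8 to 33.3), lay over a single annotated upstream TSS, so that both annotated coding start regions of Hif1a were in the list. Hif1a had no other peak in its 46.2 kb body. Of its 4 flanking peaks, the highest (13.9, 60 fragments) lay at the TSS of the neighbouring gene Snapc1, which encodes a subunit of the small nuclear RNA activating complex, and the next (10.6, 47 fragments) lay 20806 bp upstream of the gene within the overlapping transcript Gm15283.

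Egln3, whose product hydroxylates HIF alpha subunits and which is itself a known HIF target, showed a different layout. Its single annotated TSS carried a peak of 586 bp (chr12:54203526-54204111) with a fold enrichment of 9.49 (percentile 46.2), 41 fragments (29.4 to 55.6) and a −log10 q of 27.3. The expected pileup there, 3.42 fragments, was the lowest of the 10 genes. Egln3 had no flanking peak in 25 kb on either side, and its other 3 peaks were all in intron 1. The middle one of these (chr12:54192024-54192506) had a fold enrichment of 8.97 and 44 fragments (32.0 to 59.1), as high as the TSS peak within the counting intervals, and its summit lay 11710 bp inside the gene. The other intron peaks had fold enrichments of 3.15 and 4.32.

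Vegfa, which encodes the main angiogenic growth factor induced by HIF, had the lowest TSS peak of the 10 genes. The peak (chr17:46031535-46032922) had a fold enrichment of 4.29 (percentile 5.46) and a −log10 q of 12.4, with 40 fragments (28.6 to 54.5, percentile 23.0). It was also broad, at 1388 bp (percentile 93.1), and the pileup expected from its surroundings was high, at 8.56 fragments (percentile 86.0). A low fold enrichment at Vegfa thus went with both a below-median pileup and a raised surrounding level. A second TSS peak of 511 bp (3.09) and a peak in intron 2 (4.97, 49 fragments) followed within the gene. The upstream edge of the TSS peak was 553 bp from the start site, so that the core at -929, of the sequence printed above, was in no peak of the list. The second TSS peak, with its summit 1341 bp inside the gene, did hold an ACGTG and a GCGTG, at -18 and -51 bp from its summit. The 2 highest peaks of Vegfa away from its TSS were downstream of the gene, at 12726 bp past its end (8.31, 48 fragments, 35.4 to 63.6) and at 6624 bp (6.72, 34 fragments). Both of these and the intron 2 peak were above the TSS peak in fold enrichment, but the intron 2 value lay inside the TSS interval (3.09 to 5.80). The peak at 6624 bp had fewer fragments (34) than the TSS peak (40). The fragment intervals of these peaks overlapped that of the TSS peak.

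Slc2a1 encodes GLUT1, the glucose transporter of most cell types, and was surrounded by many peaks. Its TSS peak (chr4:119108465-119109409, 945 bp) had a fold enrichment of 8.86 (percentile 39.8) but 99 fragments (80.5 to 121, percentile 80.9), since the expected pileup was 10.3 fragments (percentile 93.6). All 5 annotated TSS positions of Slc2a1 lay in this peak. Upstream of the gene were 5 peaks, of which the nearest, 2824 bp away, had 88 fragments (70.6 to 108) and a fold enrichment of 7.5. Intron 2 held 2 peaks with fold enrichments of 8.34 (76 fragments) and 6.42 (57 fragments), and 9044 bp past the gene end was the highest peak of the locus by fold enrichment (10.9, 56 fragments). Together with Eno1, Slc2a1 had the most flanking peaks of the 10 genes, 7, where the median over protein-coding genes was 2.

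Hexokinase 2 (Hk2), which traps glucose in the cell and is the inducible hexokinase of muscle, fat and tumour cells, had the most peaks, 14. The TSS peak (chr6:82774120-82774902, 783 bp) had a fold enrichment of 11.8 (percentile 69.8), 115 fragments (94.9 to 138, percentile 88.7) and a −log10 q of 80.6. A second peak at the start of intron 1 (chr6:82773093-82773904, fold enrichment 5.33, 51 fragments) covered a further annotated TSS and held 5 of the 7 ACGTG places, among them the E-box-containing site printed as Hk2 839. Introns 1 to 7 held another 7 peaks. A pair in intron 2 were the highest of these, with 99 fragments (80.5 to 121) at a fold enrichment of 9.71 and 75 fragments (59.0 to 94.0) at 7.33. Past the gene end, a peak at 10552 bp had a fold enrichment of 10.3 and 52 fragments.

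Phosphofructokinase catalyses the committed step of glycolysis, and its platelet-type subunit Pfkp had the highest single peak of the set by fold enrichment. The TSS peak (chr13:6648278-6649058, 781 bp) had a fold enrichment of 12.7 (percentile 78.1), 78 fragments (61.7 to 97.3) and a −log10 q of 59.1. It was exceeded by a peak in intron 8 (chr13:6613931-6614576), 34517 bp inside the gene, with a fold enrichment of 16.1, 113 fragments (93.1 to 136) against 6.08 expected and a −log10 q of 95.4. This put the intron 8 peak at the percentile 98.0 of all 63456 peaks by fold enrichment, and it was not within 1 kb of any annotated TSS. Its fragment interval overlapped that of the Pfkp TSS peak. The other 4 body peaks of Pfkp had fold enrichments of 3.92 to 5.55. Of its 2 flanking peaks, the one downstream lay at the TSS of Pitrm1, a mitochondrial protease gene, and had a fold enrichment of 4.73.

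Aldoa, for aldolase A, which splits fructose-1,6-bisphosphate, had a pair of TSS peaks of similar size. Around the start sites of the main coding transcripts the peak (chr7:126798918-126799807, 890 bp) had a fold enrichment of 7.42, 61 fragments (46.7 to 78.4) and a −log10 q of 31.9. At an upstream TSS, at -9967 bp from the main one, the peak (chr7:126808828-126809341, 514 bp) had a fold enrichment of 8.0 (percentile 31.7), 48 fragments (35.4 to 63.6) and a −log10 q of 27.3. The former was larger by −log10 q and fragments and the latter by fold enrichment, with overlapping intervals of the fragment counts. All 4 flanking peaks of Aldoa lay at TSSs of other genes, namely Fam57b (3.37 and 3.47), Ppp4c (7.56), a protein phosphatase subunit gene, and Ypel3 with the transcript Gm9967 (8.23). Both Aldoa TSS peaks also lay inside the annotated span of Fam57b, and ATAC-seq carries no strand to tell these apart.

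Phosphoglycerate kinase 1 (Pgk1), the first ATP-yielding enzyme of glycolysis, had the most fragments at a TSS among the 10 genes. The peak (chrX:106186286-106187226, 941 bp) had 126 fragments (105 to 150, percentile 92.1), a fold enrichment of 11.4 (percentile 65.6) and a −log10 q of 85.8. Pgk1 is on the X chromosome, where 344 of 948 protein-coding genes had a TSS peak, with a median of 42.0 fragments beside 65.0 on the autosomes. The 2 cores printed above, at -148 and -129 from the TSS, lay at -24 and -5 bp from the summit of this peak. A second peak at the start of intron 1 had a fold enrichment of 5.40 and 59 fragments. In the flanks, the highest peak (14.1, 56 fragments) lay at the TSS of Taf9b, a subunit gene of the general transcription factor TFIID, and the next (11.8, 44 fragments) was 15798 bp upstream, away from any TSS.

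Eno1, for the enolase of most tissues, had a TSS peak (chr4:150236611-150237487, 877 bp) with a fold enrichment of 8.86 (percentile 39.8), 61 fragments (46.7 to 78.4) and a −log10 q of 36.7. An internal, noncoding TSS near the end of the gene carried a small peak (4.13, 15 fragments, 8.40 to 24.7). The single body peak, in intron 2, had a fold enrichment of 5.87. Eno1 had 7 flanking peaks from 2.54 to 9.26, the highest 24157 bp past the gene end and the next (7.90) at the TSS of the transcript Gm13094.

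Ldha encodes the subunit of lactate dehydrogenase that favours lactate formation. Its TSS peak (chr7:46845156-46846388) was broad, at 1233 bp (percentile 88.0), with a fold enrichment of 8.36 (percentile 35.3), 53 fragments (39.7 to 69.3) and a −log10 q of 30.9. It covered 7 of the 13 annotated TSS positions of Ldha, and a small peak (3.27, 27 fragments) lay 952 bp before the first of them. A peak 2446 bp upstream of the first annotated TSS (chr7:46838796-46839479) had the same fold enrichment to 3 digits, 8.36, and 65 fragments (50.2 to 82.8), which overlaps the TSS value. The other 2 flanking peaks of Ldha both had a fold enrichment of 3.44, one of 27 fragments and one of 16 fragments at the TSS of the transcript Gm45308. Ldha had no peak in the gene body away from its TSSs and none downstream. By unrounded fold enrichment, a TSS peak of the gene itself was the highest peak of the locus for 3 of the 10 genes, Hk2, Ldha and Egln3. For Hif1a (13.9), Aldoa (8.23) and Pgk1 (14.1) the highest peak lay at a TSS of another gene. The highest other peak lay inside the fold enrichment interval of the TSS peak for Hif1a, Hk2, Aldoa, Eno1, Ldha and Egln3. The share over all protein-coding genes was not computed, so the count of 3 is not a trait of the 10 genes.

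Reads that fit more than 1 place, as in near-identical gene copies, were not kept by the authors. The annotation lists 7 pseudogenes named after Aldoa, Ldha or Pgk1, and 0 of them had a peak over or within 1 kb of them.

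The wider pathway was described with 71 listed genes, of which 54 (76.1%) had a TSS peak, beside 53.7% of protein-coding genes. Without the 10 genes described above the count was 44 of 61 (72.1%). Among HIF subunits and oxygen sensors, 7 of 10 had a TSS peak. Arnt, the stable partner of HIF-1α, had the highest (17.4) before Hif1a (13.5), and Egln1, the main prolyl hydroxylase, the lowest (4.99, 18 fragments). No TSS peak was listed for Hif3a, for Epas1, which encodes HIF-2α, or for Arnt2, although the latter pair had 6 and 15 peaks in their gene bodies. Thus of the 3 alpha subunit genes, Hif1a alone had an accessible start site in the list.

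Of the 4 glucose transporter genes, Slc2a1 was the single one with a TSS peak, while Slc2a2, Slc2a3 and Slc2a4 had none. Slc2a3, for the neuronal transporter GLUT3, had 5 peaks in its body. In the upper part of glycolysis 12 of 14 genes had a TSS peak, with the highest for Pfkfb1 (13.9, shared with the start of Apex2) and Pfkp (12.7), the lowest for Gpi1 (7.44, 76 fragments), the glucose-6-phosphate isomerase gene, and none for Hk3 and Aldoc. In the lower part it was 8 of 12, with the highest for Pgk1 (11.4) and Pgam1 (9.58), the lowest for Eno2 (5.31), and none for Gapdhs, Pgk2, Pgam2 and Pklr. The median fold enrichment of the genes with a TSS peak was 10.1 in the upper and 8.11 in the lower part, a difference that was not tested. The 8 genes of the lower part include Eno2 (5.31), Eno3 (5.34) and Eno4 (9.27). The peaks of Eno3 and Eno4 lay also at the starts of Pfn1 and Hspa12a.

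Among genes of lactate and pyruvate handling, 8 of 11 had a TSS peak. Ldhb, whose subunit favours pyruvate formation, had the highest (20.3, 150 fragments, percentile 99.7), followed by Pdha1 (14.5), and Ldha had the lowest of the 8 (8.36). Slc16a3, which encodes the lactate exporter MCT4, had no TSS peak, nor had Slc16a7 and Ldhc. Of 20 other known HIF targets, with Vegfa counted here, 18 had a TSS peak. Their fold enrichments ran from 3.38 for Adm, the adrenomedullin gene, and 4.29 for Vegfa up to 13.7 for Ero1l, for an oxidase of protein folding, and 15.9 for Hilpda, a lipid droplet protein gene. Car9 and Car12, for carbonic anhydrases of the cell surface, had none. The Epo peak (6.90), counted among the 18, lay also at the start of Gnb2, so it cannot be assigned to Epo.

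**Figure D4:**
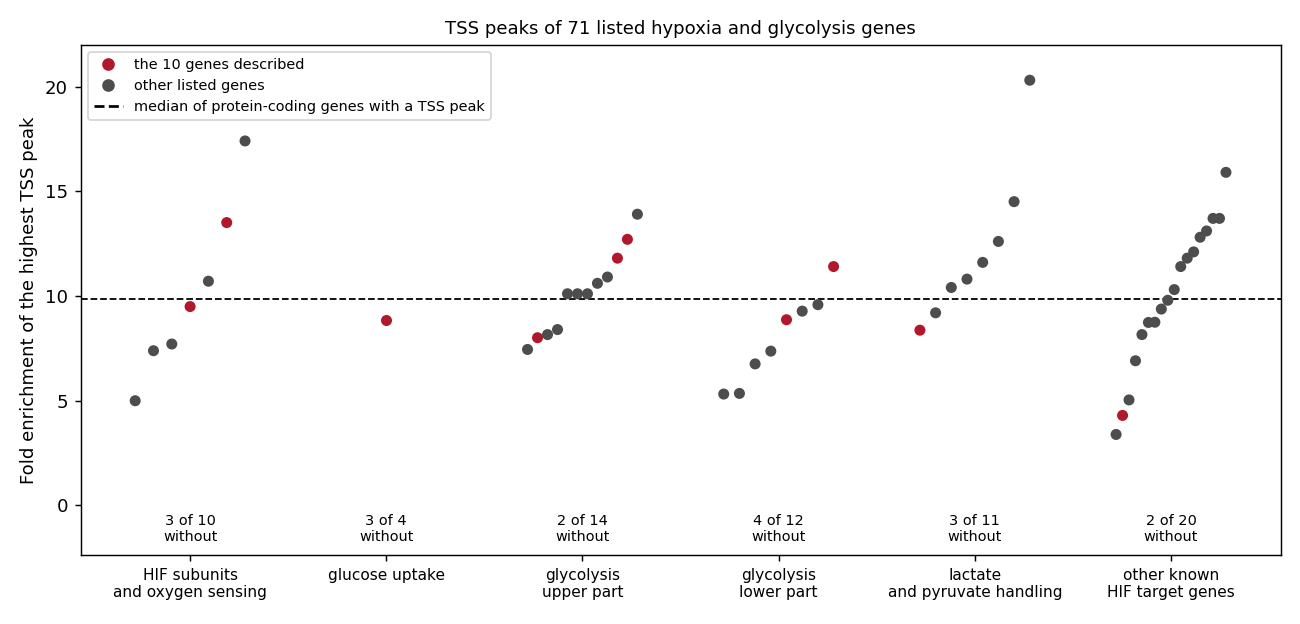
Fold enrichment of the highest TSS peak (y axis) of the listed genes by pathway group (x axis), 1 point per gene with a TSS peak in 1 library; the 10 genes described are red, and the text under each group counts the genes without a TSS peak. The dashed line is the median of 9.86 over protein-coding genes with a TSS peak, with 27 of the 54 listed genes with a TSS peak above it and 27 below.

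Isozymes of the same reaction differed in whether a TSS peak was listed, except for phosphofructokinase, where Pfkl, Pfkm and Pfkp all had one, and enolase, where Eno1, Eno2, Eno3 and Eno4 all had one. The isozyme genes were labelled by hand, from textbook knowledge, as broadly expressed, inducible or tissue-restricted. Pfkl, Pfkm and Pfkp were all labelled broad, and expression was not measured here. All 12 genes labelled broadly expressed had a TSS peak (median fold enrichment 9.84), and so had Hk2, labelled inducible. The 12 were Hk1, Pfkl, Pfkm, Pfkp, Aldoa, Pgk1, Pgam1, Eno1, Pkm, Gapdh, Ldha and Ldhb. Of 10 isozyme genes labelled tissue-restricted, 3 had a TSS peak (median 5.34). These were Eno2 of neurons (5.31), Eno3 of muscle (5.34, a peak shared with Pfn1) and Eno4 (9.27, shared with Hspa12a). The liver, brain, muscle or testis forms Aldoc, Pgk2, Pgam2, Pklr, Ldhc and Gapdhs and the blood cell form Hk3 had no TSS peak. Hexokinase, aldolase, phosphoglycerate kinase and lactate dehydrogenase thus each had a peak at the start of the form included among the 10 genes and none at the start of at least 1 other form.

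**Figure D5:**
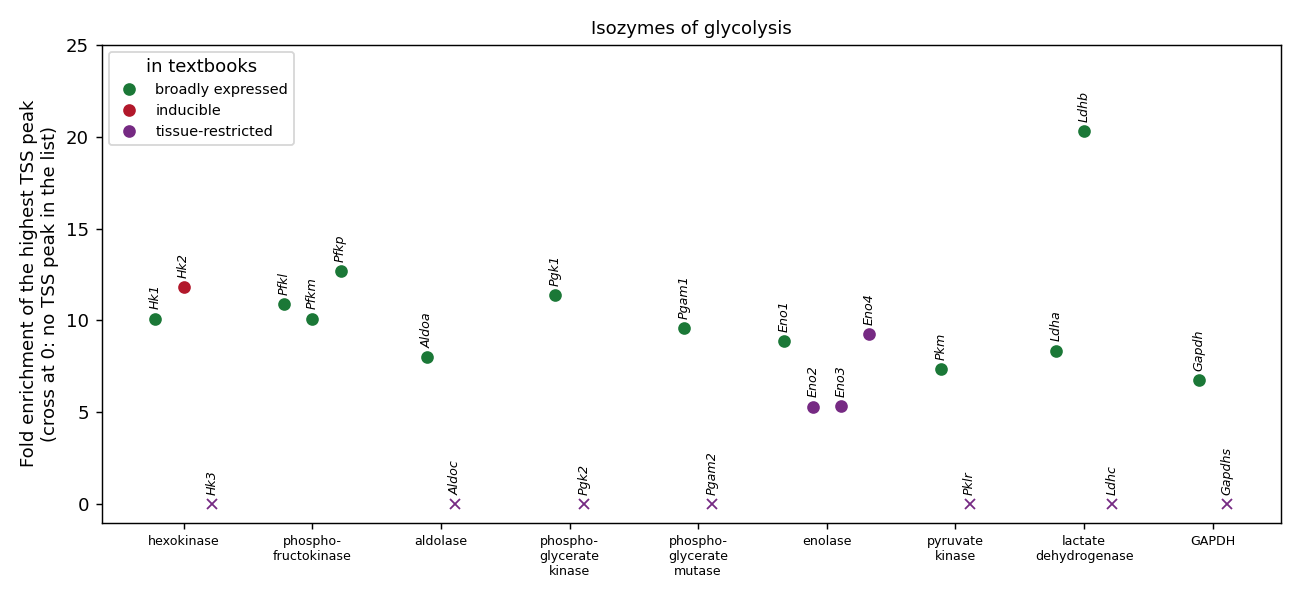
Fold enrichment of the highest TSS peak (y axis) of glycolytic isozyme genes, grouped by enzyme and coloured by textbook expression, in 1 library; crosses at 0 mark genes with no TSS peak in the list, not a measured value of 0. The expression labels were assigned by hand from textbook knowledge. All 12 forms labelled broadly expressed and Hk2 have a peak, and 7 of the 10 labelled tissue-restricted are crosses.

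At the summits themselves, in windows of 201 bp, an HRE core in either form (ACGTG or GCGTG, both strands) was present in the highest TSS peak of 7 of the 10 genes and of 54.5% of protein-coding genes with a TSS peak. The A form was present at 5 of them, Hif1a, Slc2a1, Hk2, Pgk1 and Ldha (20.1% of all genes), and the G form at 3, Slc2a1, Pfkp and Eno1 (43.5%). GC boxes (GGGCGG), which Sp-family factors bind, were present at 9 (58.4%), and CCAAT boxes, bound by NF-Y, at 7 (34.2%). The AP-1 sequence TGACTCA was present at 0 of the 10 (6.24%), the CRE TGACGTCA at 0 (3.06%), the E-box CACGTG at Ldha alone (8.09%) and TATAAA at Slc2a1 alone (2.92%). These windows had a median GC content of 66.7% over the 10 genes and of 64.2% over all genes, and a median ratio of observed to expected CpG of 0.725 and 0.812. In RefSeq promoters of GRCm38, which run from 250 bp before to 50 bp after a start, 14 of the 16 entries for the 10 genes held an HRE core and 9 the A form, beside 43.8% and 19.6% of 32851 promoters. A match says only that these letters are in the window, and binding of HIF was not measured.

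Peaks of the 10 genes away from any TSS, 53 in number, had another sequence content. TGACTCA was present in the summit windows of 19 of them (35.8%), close to the 36.5% of all 47192 such peaks. The HRE core was present in 18 (34.0%, beside 20.4%) and its A form in 14 (26.4%, beside 10.2%). Of these 18 windows, 5 belonged to Hk2 and 4 to Slc2a1, which had 12 and 9 peaks away from any TSS. Egln3 had a core in 2 of 3 such peaks. Pgk1, Ldha and Aldoa had none, in 5, 2 and 1 such peaks. The 53 peaks had a median fold enrichment of 5.03, beside 5.54 for all peaks away from TSSs. It was 5.55 for the 19 with TGACTCA and 4.93 for the other 34, beside 6.30 and 5.25 over all such peaks.

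The 201-bp summit windows of 4 such peaks, the highest away from TSSs at their genes, are printed because they show an AP-1 sequence at the highest distal peak of the set (Pfkp), a pair of AP-1 sequences (Eno1) and the HRE cores (Egln3 and Vegfa). Of the corresponding windows not printed, those of Slc2a1 (10.9), Hif1a (10.6), Hk2 (10.3) and Aldoa (4.06) each held 1 AP-1 sequence and no HRE core, and those of Pgk1 (11.8) and Ldha (8.36) held neither. They were read from GRCm38 on the strand of the gene, 5′ to 3′, and capitals mark TGACTCA or its reverse complement TGAGTCA at Pfkp and Eno1, and ACGTG or GCGTG on either strand at Egln3 and Vegfa.
Pfkp intron 8 (chr13:6614160-6614360, minus strand): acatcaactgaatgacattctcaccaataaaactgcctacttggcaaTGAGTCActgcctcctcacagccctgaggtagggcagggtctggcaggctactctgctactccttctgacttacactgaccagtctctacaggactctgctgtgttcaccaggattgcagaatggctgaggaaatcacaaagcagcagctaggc
Eno1 downstream (chr4:150272936-150273136, plus strand): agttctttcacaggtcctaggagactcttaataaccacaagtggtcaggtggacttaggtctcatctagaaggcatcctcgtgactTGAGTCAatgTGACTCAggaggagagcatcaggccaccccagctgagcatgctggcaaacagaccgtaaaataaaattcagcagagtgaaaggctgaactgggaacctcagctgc
Egln3 intron 1 (chr12:54192050-54192250, minus strand): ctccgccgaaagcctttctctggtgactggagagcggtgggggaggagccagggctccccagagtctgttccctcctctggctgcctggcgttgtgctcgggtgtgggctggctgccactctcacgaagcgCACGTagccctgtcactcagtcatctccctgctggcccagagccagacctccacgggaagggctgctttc
Vegfa downstream (chr17:46004167-46004367, minus strand): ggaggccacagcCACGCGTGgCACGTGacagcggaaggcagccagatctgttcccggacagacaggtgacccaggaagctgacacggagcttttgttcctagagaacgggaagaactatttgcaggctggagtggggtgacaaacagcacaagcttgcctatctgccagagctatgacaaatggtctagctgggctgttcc

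The Pfkp window held a single AP-1 sequence at a fold enrichment of 16.1, and the Eno1 window held 2 at 9.26. The Egln3 window held 1 core, of the A form, at 8.97. The summit window of the Egln3 TSS peak held none, although that peak held the core printed at -241. Another intron 1 peak of Egln3 (4.32) also held an ACGTG in its summit window. The Vegfa window held 4 matches of the core at 8.31, of which 2 fall in the E-box CACGTG and 2 in CACGCGTG.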

How the data were processed

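Peaks of 1 parental NIH-3T3 library were analysed. According to the methods and the submitters' processing notes, the authors mapped read pairs with STAR 2.5.3a to mm10, kept unique alignments, discarded Picard duplicates and used MACS2 2.1.1.20160309 on whole fragments (SAMtools and deepTools are also named). The authors deposited for each peak a fold enrichment (a ratio), a −log10 p and a −log10 q of a Poisson test at the summit, and a score, which is the −log10 q times 10, rounded down, and was not analysed. Unique mapping and duplicate removal lower the signal in repeated sequence, and the number of reads is unknown from the list.

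Genes and TSSs of all transcripts were those of GENCODE M21 on GRCm38, chromosomes 1 to 19, X and Y. Peak intervals were assigned first to a TSS of the gene (within 1 kb), then to its body, then to the flanks (25 kb). Start sites used for distances are the annotated ones nearest to the summit of the highest TSS peak, and introns are numbered in the transcript with the longest coding sequence. Fold enrichment and −log10 p together gave the summit fragments, a step tested on simulated summits with 100% recovered. In the list 2 peaks were further than 0.02 from a whole number. Poisson intervals of 95% hold the expected pileup fixed. Percentiles are among protein-coding genes with a TSS peak unless stated otherwise. Calculations used pysam 0.24.0, NumPy 2.4.6, SciPy 1.17.1, pandas 2.3.3 and matplotlib 3.10.9 in Python 3.11.15.

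Members, lists and motifs were chosen with earlier results of these data known, and some listed genes are not reported here. Named were the 10 genes, the listed genes without a TSS peak, the 2 highest and 1 lowest with one, all isozymes, neighbouring genes with a TSS at a counted peak, and the 2 highest body or flanking peaks of each gene. Further peaks, the printed sites and windows, and the search within 1 kb of the TSS were chosen after their values were seen. No group was compared and no test was made.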

Additional observations from a re-analysis of the deposited data

How the results depend on the processing

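No paired analysis was possible because the values come from a single library. Of 42 alternatives, 32 left the value within its counting interval or within 1.5 times the count and 10 moved it. The percent of protein-coding genes with a TSS peak moved from 53.7 to 52.0 with a q of 1e-05 or below, to 48.7 with a fold enrichment of at least 5, to 48.6 with peaks that overlap the TSS, to 51.9 and 56.5 with distances of 500 bp and 2 kb, and to 52.2 with coding transcripts only. With a fold enrichment of at least 5, the body peaks of the 10 genes fell from 21 to 10 and their flanking peaks from 41 to 22, and flanks of 10 and 50 kb held 20 and 63. A TSS peak was kept by 10 of the 10 genes under the other alternatives and by 9 with a fold enrichment of at least 5, which Vegfa did not reach. The HRE core was present for 6, 9 and 10 genes with 50 bp or 250 bp to either side of the summit and in the whole peak, beside 34.3, 79.0 and 84.3% of genes. A gene without a listed peak may have accessible DNA below the detection limit of this library, and a single library cannot separate differences between genes from variation between cultures.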
